A study of Mus musculus with 37 samples.

Results

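Cyp2b9, Cyp2b10 and Cyp2b13 encode cytochrome P450 enzymes of the liver, and Nr1i3 and Nr1i2 encode the nuclear receptors CAR and PXR, which act on this gene family. These 5 genes were chosen by name and not by a threshold on their values, but with earlier results of these data known. All 5 have a row among the 24421 gene rows of the count files. They passed the filter on low counts, as did 15152 genes in all. RNA was sequenced from 37 livers of C57BL/6 mice at 2 months of age. Of the males, 6 were wild type (WT), 9 carried Y665F and 4 carried Y665H, and of the females 6 were of each genotype. Y665F and Y665H are point substitutions of the same tyrosine in the SH2 domain of STAT5B, which carries the growth hormone signal to the nucleus. WT mice of the same strain and sex served as controls, and no drug or other inducer is named for any group. Whether the mice carried a substitution on 1 allele or on both is not given in the sources used here. The labels number the replicates without naming animals or litters, so the p-values measure the spread between these libraries.

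CYP2B enzymes oxidise drugs, steroids and fatty acids. In mouse liver Cyp2b10 is the classic phenobarbital-inducible member, while Cyp2b9 and Cyp2b13 are known for higher RNA in females. CAR is held in the cytoplasm by chaperones, moves to the nucleus when EGFR signalling is blocked or an activator binds, and pairs with RXR on enhancers of Cyp2b10. PXR pairs with RXR too, responds to many foreign compounds and steroids, and has Cyp3a11 as its best known target. Growth hormone is released in pulses in males and more evenly in females, and STAT5B reads this pattern and keeps many liver genes sex-biased.

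The Cyp2b genes lie close together on chromosome 7 (GENCODE M21, build GRCm38), all on the plus strand. Cyp2b10 spans chr7:25897620-25926624, Cyp2b13 spans chr7:26061497-26096197 and Cyp2b9 spans chr7:26173411-26210661. Nr1i3 spans chr1:171213970-171220701 on the plus strand, and Nr1i2 spans chr16:38248323-38294824 on the minus strand. The 250 bases before the RefSeq start sites (build GRCm38.p6, plus strand, at chr7:26173159-26173408, chr7:26061245-26061494 and chr7:25897408-25897657) are shown because Cyp2b9 and Cyp2b13 share nearly all of theirs and yet their RNA differed in Y665F females, as described below. In the first 2 sequences capitals mark the 2 bases at which they differ, at -203 and -147 counted from the start site. In Cyp2b10 capitals mark a match to TTGCNNAA.
Cyp2b9: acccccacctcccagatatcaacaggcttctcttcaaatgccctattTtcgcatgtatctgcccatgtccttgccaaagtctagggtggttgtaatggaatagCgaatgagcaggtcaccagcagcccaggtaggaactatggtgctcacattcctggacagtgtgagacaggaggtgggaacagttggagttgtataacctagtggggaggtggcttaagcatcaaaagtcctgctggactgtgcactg
Cyp2b13: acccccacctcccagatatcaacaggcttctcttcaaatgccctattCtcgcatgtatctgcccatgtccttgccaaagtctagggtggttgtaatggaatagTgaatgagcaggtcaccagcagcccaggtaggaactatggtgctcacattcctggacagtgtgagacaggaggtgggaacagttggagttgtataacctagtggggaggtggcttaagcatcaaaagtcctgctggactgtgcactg
Cyp2b10: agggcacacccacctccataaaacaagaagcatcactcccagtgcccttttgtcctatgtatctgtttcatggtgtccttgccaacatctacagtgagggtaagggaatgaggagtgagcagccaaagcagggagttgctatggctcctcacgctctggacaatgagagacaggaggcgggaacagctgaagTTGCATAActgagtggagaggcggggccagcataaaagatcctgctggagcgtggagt

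The Cyp2b9 and Cyp2b13 windows were identical at 248 of 250 bases (99.2%), and Cyp2b9 and Cyp2b10 at 75.8% of 240 aligned bases. Both strands were searched for 4 motifs, none of whose matches overlapped another. TTCNNNGAA, the palindrome that STAT5 proteins bind, had no match in the windows of the 5 genes and was present in 7.02% of 32851 RefSeq promoter windows. ATCAAT, the core bound by CUX2 and HNF6, had no match in the 5 windows and was present in 6.72% of all windows. TTGCNNAA, a C/EBP-type motif held by 9.56% of all windows, matched at -180 to -173 in Cyp2b9 and Cyp2b13 and at -58 to -51 in Cyp2b10. AGGTCA, a nuclear receptor half-site held by 14.0% of all windows, matched at -138 to -133 in Cyp2b9 and Cyp2b13. These matches describe letters in short windows and say nothing of binding, and the distal enhancers of these genes were not used here.

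Male libraries held 49141951 to 73937726 counts in genes and female libraries 24388434 to 40864173, so depth did not overlap between the sexes. Reads that aligned to more than 1 place made up 19.0% to 30.1% of the counted items. The aligned transcripts of Cyp2b9 and Cyp2b13 were 91.9% identical, and 1.18% of the 100-base windows and 10.8% of the 50-base windows of Cyp2b9 occurred exactly in Cyp2b13. Cyp2b10 shared no 100-base window with either, but 7.82% of its 50-base windows occurred in Cyp2b13 and 0.536% in Cyp2b9. How the counting divided such reads between the Cyp2b genes was not tested. Levels below are CPM, counts divided by the TMM-scaled library size, unless a sentence names another scale. Stat5b RNA itself averaged 96.4 CPM ± 10.5 (SD, n = 6) in males of the WT and 108 ± 5.34 (SD, n = 9) in those with Y665F, which edgeR called higher at 0.17 on the log2 scale (SE 0.067, adjusted p 0.0370). None of the other groups differed from WT past the threshold for Stat5b, and its RNA level does not show whether a library carries the substitution.

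Of the 5 genes, Cyp2b9, Cyp2b13 and Cyp2b10 rose and Nr1i2 fell in Y665F males against WT males, while Nr1i3 was not called. In that comparison 52.5% of all genes tested were called by edgeR's quasi-likelihood test at an adjusted p under 0.05, 27.2% as higher and 25.3% as lower, so the count of 4 of 5 stands against a high background. The sizes differed widely between the Cyp2b genes, from 1.67 on the log2 scale for Cyp2b10 to 5.45 for Cyp2b9 and 8.81 for Cyp2b13. In Y665F females against WT females Cyp2b13 fell and Cyp2b10 rose, 2 of 5 genes, where 41.0% of all genes were called, 17.8% as higher and 23.3% as lower. Neither edgeR nor DESeq2 called any of the Cyp2b genes in Y665H against WT of the same sex, where edgeR called 8.40% of all genes in males and 7.50% in females. Cyp2b10 in females was at an unadjusted p of 0.00765 (adjusted p 0.0729).

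Cyp2b9 read 11.8, 25.3, 7.26, 21.7, 12.0 and 6.42 CPM in the 6 WT males. It read 670, 444, 636, 628, 605, 631, 674, 629 and 610 CPM in the 9 Y665F males. Every Y665F male was above every WT male, with a fitted 43.6-fold rise (95% interval 23.2 to 82.2). WT females read 721, 506, 727, 689, 480 and 651 CPM, so the Y665F males lay within or just below the WT female range.

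The 6 Y665F females read 472, 392, 427, 418, 377 and 437 CPM of Cyp2b9, all below the lowest WT female. The fit over all 37 libraries nevertheless did not call this difference (log2 fold change -0.58, SE 0.38, 95% interval -1.35 to 0.19, adjusted p 0.224). With a fit on these groups alone the log2 fold change was -0.55 and the adjusted p 0.000573, so the call depended on which libraries entered the fit. Y665H females read 758, 502, 738, 405, 741 and 690 CPM, 0.023 from WT females on the log2 scale (95% interval -0.74 to 0.79, adjusted p 0.980).

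Among Y665H males Cyp2b9 was uneven, at 32.0, 2.11, 3.30 and 43.2 CPM. Replicates 1 and 4 were above every WT male and replicates 2 and 3 were below every WT male. The group mean of 20.1 CPM ± 20.6 (SD, n = 4) did not differ past the threshold from that of WT males, 14.1 ± 7.74 (SD, n = 6), with a log2 fold change of 0.52 (95% interval -0.35 to 1.39, adjusted p 0.492). Without Y665H male replicate 4 it was -0.17, so that library set the sign. Reads aligned to more than 1 place took 23.5% and 24.1% of the counted items in replicates 1 and 4, and 30.1% and 27.4% in replicates 2 and 3. The part of this share in the Cyp2b9 levels was not tested.

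**Figure D1:**
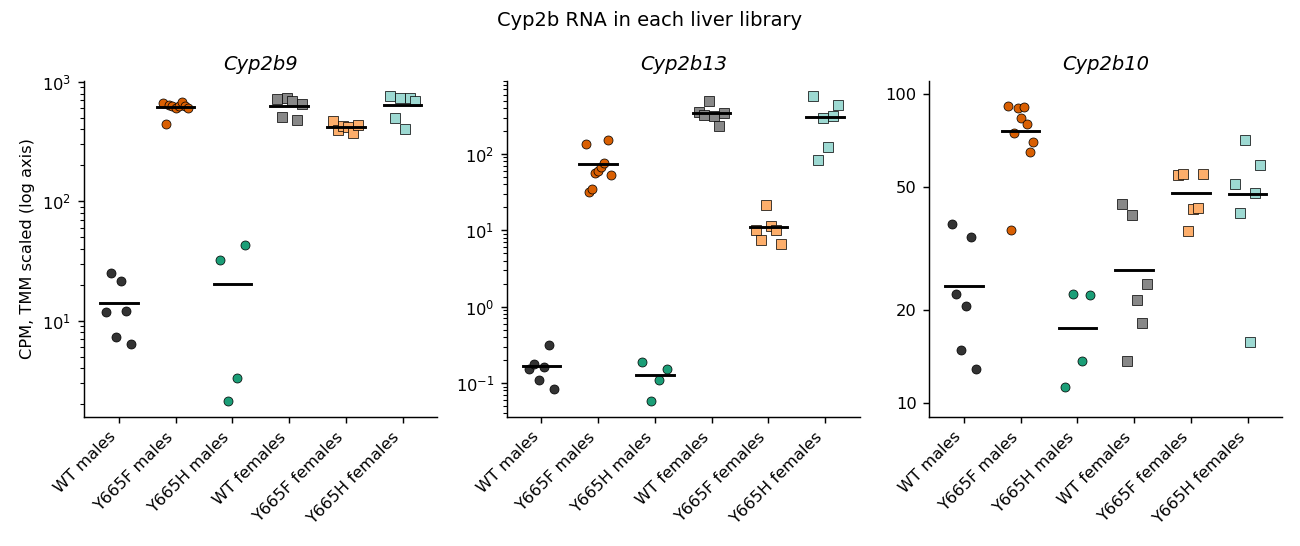
RNA of Cyp2b9, Cyp2b13 and Cyp2b10 in each of the 37 liver libraries, in CPM scaled by TMM on log axes that differ between panels, with 1 point per library and a bar at each group mean. Y665F males sit near the females for Cyp2b9 (444 to 674 CPM), between WT males and WT females for Cyp2b13, and above the other groups by mean for Cyp2b10.

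Cyp2b13 had the widest range of the 5 genes. WT males held 62 counts of it over 6 libraries, 6 to 17 counts each, or 0.168 CPM ± 0.0823 (SD, n = 6). Y665F males read 136, 31.6, 35.1, 56.4, 60.7, 67.3, 77.0, 153 and 53.7 CPM. All 9 were above every WT male, with a log2 fold change of 8.81 (SE 0.55, adjusted p 1.78e-15). They spread widely among themselves, and 9 of 9 were below the WT female range, where the 6 libraries read 352, 328, 495, 312, 233 and 342 CPM.

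Y665F females read 10.0, 7.52, 21.8, 11.3, 10.1 and 6.52 CPM of Cyp2b13. All 6 were below every WT female and also below every Y665F male. Against WT females the log2 fold change was -4.94 (SE 0.41, adjusted p 5.83e-12), a 30.6-fold lower level. Cyp2b13 was thus higher in Y665F males than in Y665F females (log2 fold change 2.73, SE 0.36, adjusted p 1.48e-07), the reverse of its order in WT mice.

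Y665H left Cyp2b13 without a call in both sexes. The 4 Y665H males read 0.191, 0.0574, 0.109 and 0.152 CPM, or 33 counts in all, and the 95% interval of the log2 difference from WT males was -2.52 to 1.82 (adjusted p 0.878). Y665H females read 570, 83.8, 295, 124, 316 and 436 CPM, with replicates 2 and 4 low for Cyp2b13 and for Cyp2b9 alike. Their log2 fold change against WT females was -0.18 (95% interval -0.87 to 0.52, adjusted p 0.792).

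Cyp2b9 and Cyp2b13 therefore parted in the Y665F livers. WT females had 54.7 ± 9.46 (SD, n = 6) counts of Cyp2b13 per 100 counts of Cyp2b9, and Y665F females had 2.67 ± 1.28 (SD, n = 6). WT males had 1.37 ± 0.712 (SD, n = 6) and Y665F males 11.9 ± 6.25 (SD, n = 9). The ranges of neither pair overlapped. A 2-sided exact permutation test on the log2 ratio, chosen after the data had been seen and adjusted over 4 comparisons, gave a difference of -4.45 in females (p 0.00216, adjusted p 0.00433) and 3.04 in males (p 0.0001998, adjusted p 0.000799). Both p-values are the smallest that groups of these sizes allow. The ranges had already been seen not to overlap, so the test restates that separation. For Y665H the differences were -0.43 in females (44.7 ± 21.4 per 100, n = 6, exact p 0.236, adjusted p 0.315) and -0.057 in males (1.74 ± 1.49 per 100, n = 4, exact p 0.933, adjusted p 0.933). In WT and Y665H males Cyp2b13 was so low that a few misassigned Cyp2b9 reads could weigh in its count, and this was not tested. The Y665F female ratios, 1.49 to 5.09 per 100, overlapped those of WT males, 0.711 to 2.67, so the same limit holds for them.

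**Figure D2:**
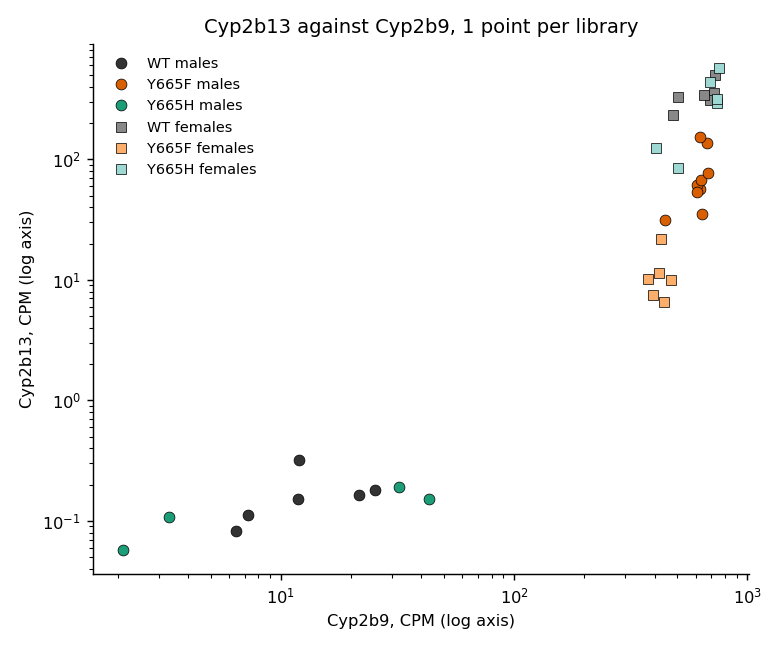
Cyp2b13 against Cyp2b9 in CPM on log axes, 1 point per library, with circles for males and squares for females. Y665F females share the upper end of the Cyp2b9 axis with WT females but sit at 6.52 to 21.8 CPM of Cyp2b13, below the 9 Y665F males at 31.6 to 153 CPM.

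Cyp2b10, the CAR-inducible gene, behaved differently from its relatives. It showed no called sex difference in WT mice, where males read 37.8, 22.4, 14.8, 20.6, 34.4 and 12.8 CPM and females 43.9, 13.6, 40.4, 21.5, 18.1 and 24.2 CPM (log2 fold change -0.18, 95% interval -0.77 to 0.41, adjusted p 0.629). Y665F males read 91.2, 36.1, 74.7, 89.9, 83.2, 90.8, 80.0, 64.8 and 69.6 CPM, and 8 of 9 were above every WT male. The log2 fold change was 1.67 (SE 0.27, adjusted p 4.12e-06).

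In Y665F females Cyp2b10 read 54.7, 55.0, 36.0, 42.4, 42.5 and 55.1 CPM. The rise over WT females was 0.82 on the log2 scale (SE 0.29, adjusted p 0.0224), with all 6 above the WT female mean and 3 above every WT female. The call rested on single controls: without WT female replicate 2, 4 or 5 the adjusted p was 0.0559, 0.0501 or 0.0556. Y665H females read 50.9, 41.1, 70.7, 15.7, 47.7 and 58.9 CPM, also 0.82 on the log2 scale over WT females (SE 0.29) but with an adjusted p of 0.0729. That value became 0.0412 without WT female replicate 1 and 0.0269 without Y665H female replicate 4, the lowest of its group. Y665H males read 11.2, 22.5, 13.6 and 22.4 CPM, with none above the WT male mean (log2 fold change -0.45, 95% interval -1.11 to 0.21, adjusted p 0.428).

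Expressed per length, as RPKM over the exon bases of GENCODE M21, the Cyp2b genes summed to 18.9 ± 6.79 (SD, n = 6) in males and 531 ± 100 (SD, n = 6) in females of the WT. By mean Cyp2b10 was the largest part in WT males, at 60.3% ± 12.7 of the sum. Single WT males ran from 43.9% to 73.7%, and Cyp2b9 reached 55.7% among them. In WT females Cyp2b10 was 2.33% ± 0.739, Cyp2b9 63.3% ± 3.74 and Cyp2b13 34.3% ± 3.80. Y665F males summed to 403 ± 57.3 RPKM (SD, n = 9), of which Cyp2b9 was 81.7% ± 4.25 and Cyp2b13 9.51% ± 4.40. Y665F females summed to 253 ± 19.6 RPKM (SD, n = 6), of which Cyp2b9 was 88.7% ± 0.683 and Cyp2b13 2.37% ± 1.14. The make-up in Y665F livers was thus led by Cyp2b9 in both sexes. Cyp2b9 also led in WT females and in Y665H females (67.3% ± 9.55), so in females this lead was not particular to Y665F. Y665H males summed to 19.1 ± 11.5 RPKM (SD, n = 4) and Y665H females to 525 ± 175 (SD, n = 6), near the WT sums of their sexes.

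Nr1i3 RNA, which encodes CAR, was sex-biased and was not called for either substitution within a sex. WT males read 81.6 to 94.3 CPM (median 87.6, n = 6) and WT females 155 to 194 (median 174, n = 6), without overlap. The log2 fold change of males against females was -0.99 (SE 0.12, adjusted p 2.08e-08). Y665F males read 89.4 to 117 CPM (median 101, n = 9), with 7 of 9 above every WT male and a log2 fold change of 0.23 (SE 0.11, adjusted p 0.0692). The adjusted p was 0.0497 without Y665F male replicate 2 and 0.00260 in a fit of these groups alone, so this difference stood at the edge of the threshold and depended on the fit. Y665F females read 152 to 193 CPM (median 160, n = 6), a log2 fold change of -0.066 from WT females (95% interval -0.30 to 0.17, adjusted p 0.680).

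Y665H males read 121, 63.7, 83.9 and 84.6 CPM of Nr1i3, and replicate 1 alone was above the WT range (log2 fold change 0.017, 95% interval -0.25 to 0.28, adjusted p 0.953). Y665H females read 108 to 214 CPM (median 135, n = 6), with 4 of 6 below every WT female and replicate 6 above all of them. Their log2 fold change was -0.26 (95% interval -0.50 to -0.017, adjusted p 0.169), and without replicate 6 it was -0.40 (adjusted p 0.00840). Nr1i3 overlaps Tomm40l, a mitochondrial import gene at chr1:171216011-171222514 on the opposite strand. The strand setting of the counting is not given in the sources used here, so reads of the shared stretch cannot be assigned with certainty. Like Nr1i3, Tomm40l was lower in WT males than in WT females (log2 fold change -0.91, SE 0.15, adjusted p 3.65e-06), with no call for either substitution against WT.

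Nr1i2 RNA, which encodes PXR, fell in the males of both substitutions. WT males read 73.8 to 85.6 CPM (median 78.6, n = 6) against 52.2 to 65.1 with Y665F (median 58.4, n = 9), so all 9 were below every WT male. The log2 fold change was -0.46 (SE 0.083, adjusted p 1.83e-05). The 4 Y665H males read 61.9, 56.3, 52.1 and 60.3 CPM, also all below every WT male, with a log2 fold change of -0.45 (SE 0.10, adjusted p 0.00655). Of the 5 genes it was the 1 called in Y665H males, where 8.40% of all genes were called and 3.18% were called lower. Both substitutions were compared with the same 6 WT males.

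Females kept Nr1i2 near the WT level. WT females read 67.6 to 92.9 CPM (median 82.6, n = 6), Y665F females 58.0 to 100 (median 72.0, n = 6) and Y665H females 65.4 to 88.9 (median 78.4, n = 6). The log2 fold changes were -0.11 (95% interval -0.30 to 0.079, adjusted p 0.357) for Y665F and -0.046 (95% interval -0.23 to 0.14, adjusted p 0.797) for Y665H. Without Y665F female replicate 2 the first was -0.21 with an adjusted p of 0.0481. In Y665H females 0 of the 5 genes were called by edgeR, against 7.50% of all genes, with 2 at an unadjusted p under 0.05 and 0 called by DESeq2.

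**Figure D3:**
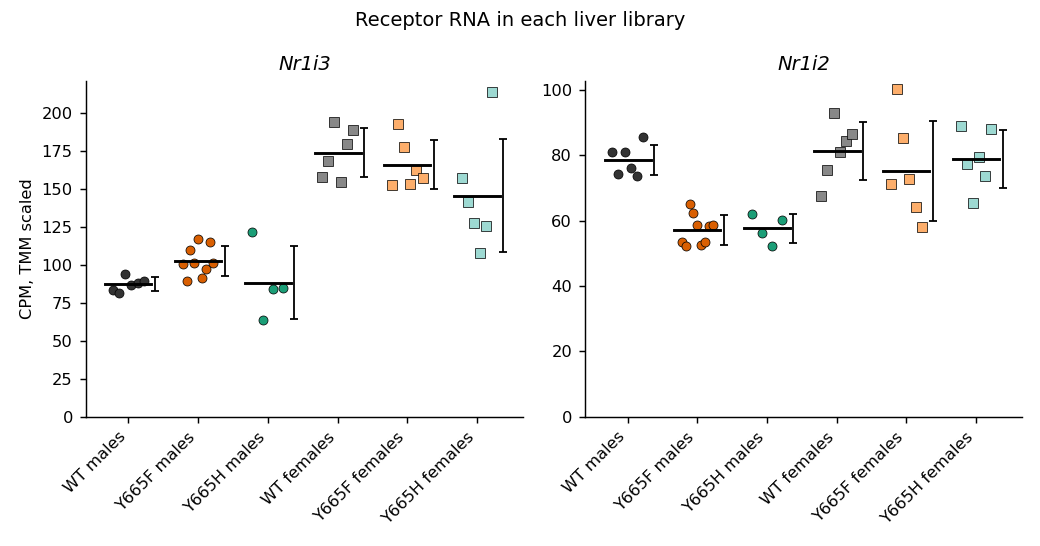
RNA of Nr1i3 and Nr1i2 in each library, in CPM scaled by TMM on linear axes from 0, with a bar at each group mean and an error bar of 1 SD. Nr1i3 separates WT males (81.6 to 94.3 CPM) from WT females (155 to 194), and Nr1i2 is lower in the males of both substitutions (52.1 to 65.1 CPM) than in WT males.

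The sexes were compared within each genotype. In WT mice 3 of the 5 genes were lower in males, where 49.7% of all genes were called and 26.8% were called lower: Cyp2b13 (log2 fold change -11.02, SE 0.59, adjusted p 6.38e-17), Cyp2b9 (-5.48, SE 0.46, adjusted p 8.75e-12) and Nr1i3. After every library was thinned at random to the lowest total, 24388434 counts, each of the 5 kept its call in this comparison. Other processing that may follow sex cannot be told apart from sex.

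In Y665F mice 4 of the 5 were called between the sexes (43.1% of all genes, 22.8% higher and 20.3% lower in males). Cyp2b13 and, weakly, Cyp2b10 were higher in males (Cyp2b10 log2 fold change 0.67, SE 0.26, adjusted p 0.0390). That call was lost, with an adjusted p between 0.0514 and 0.0880, on leaving out any 1 of 8 of these 15 libraries, and it was 0.0781 with the replicate number as a block. Nr1i3 (-0.70, SE 0.11, adjusted p 1.83e-06) and Nr1i2 (-0.40, SE 0.084, adjusted p 0.000195) were lower in males. Cyp2b9 did not pass (0.55, 95% interval -0.17 to 1.26, adjusted p 0.215), though 8 of 9 males were above every Y665F female, and with a fit of these groups alone it was called (0.51, adjusted p 5.71e-05).

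In Y665H mice all 5 genes were lower in males (30.9% of all genes were called, 16.7% as lower): Cyp2b13 by -11.19, Cyp2b9 by -4.99, Cyp2b10 by -1.45, Nr1i3 by -0.72 and Nr1i2 by -0.45 on the log2 scale, with adjusted p-values from 2.69e-14 to 0.00129.

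Whether an effect differed between the sexes was tested as an interaction. The Y665F effect in males minus that in females was 6.03 for Cyp2b9 (SE 0.57, adjusted p 4.68e-10), 13.75 for Cyp2b13 (SE 0.69, adjusted p 5.97e-17) and -0.35 for Nr1i2 (SE 0.12, adjusted p 0.0332), so 3 of 5 were called where 27.7% of all genes were, 16.1% as higher and 11.5% as lower. The Nr1i2 call was lost without WT female replicate 1 (adjusted p 0.0679), Y665F female replicate 2 (0.0902) or Y665F female replicate 3 (0.0685), and with the replicate block (0.0840). Cyp2b10 rose in both sexes, and its effect was not shown to differ between them (0.85, SE 0.39, 95% interval 0.055 to 1.64, adjusted p 0.102). Nr1i3 gave 0.30 (95% interval -0.026 to 0.62, adjusted p 0.164), and in a fit of the 4 groups alone 0.28 with an adjusted p of 0.0279.

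For Y665H 0 of 5 interactions were called by edgeR, against 5.24% of all genes. Cyp2b10 (-1.27, SE 0.44) and Nr1i2 (-0.40, SE 0.14), each with an adjusted p of 0.0781, were the 2 with an unadjusted p under 0.05, and DESeq2 called 0. The Cyp2b10 value passed without WT female replicate 1 (adjusted p 0.0455) or Y665H female replicate 4 (0.0259), and the Nr1i2 value in a fit of the 4 groups alone (-0.41, adjusted p 0.0485). The fall of Nr1i2 in Y665H males was therefore not shown to be particular to males.

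The substitutions were also set against each other directly. Y665H males were lower than Y665F males for Cyp2b13 (log2 fold change -9.16, SE 0.69, adjusted p 3.91e-13), Cyp2b9 (-4.93, SE 0.53, adjusted p 1.90e-09) and Cyp2b10 (-2.12, SE 0.33, adjusted p 3.05e-06), with 41.7% of all genes called, 21.2% as lower. In each of these genes all 4 Y665H males were below all 9 Y665F males. Their Nr1i2 levels differed by 0.012 (95% interval -0.18 to 0.21, adjusted p 0.935). In females Cyp2b13 alone was called, 4.76 higher in Y665H (SE 0.41, adjusted p 7.14e-12), with 56.5% of all genes called, 30.5% as higher. The Cyp2b10 level in females differed by -0.0016 between the substitutions (95% interval -0.58 to 0.58, adjusted p 0.997).

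**Figure D4:**
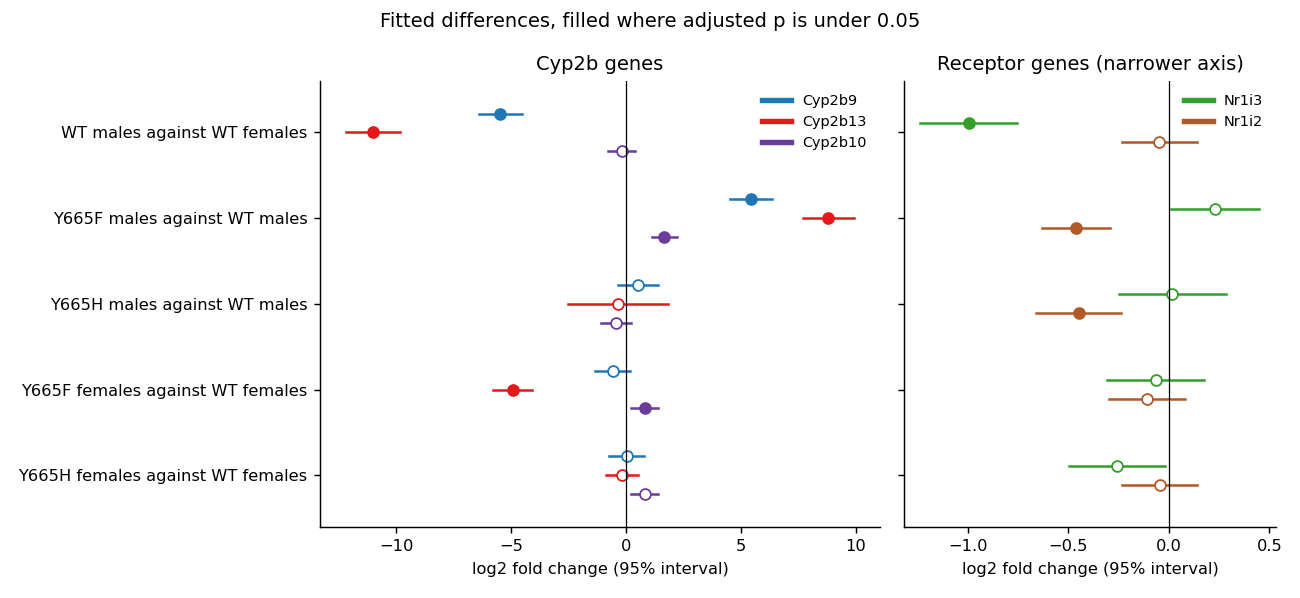
Log2 fold changes of the 5 genes with 95% intervals in 5 comparisons, filled where the adjusted p is under 0.05, with a narrower axis for the receptor genes at right. Cyp2b9 and Cyp2b13 move by 5.45 and 8.81 in Y665F males, Cyp2b13 by -4.94 in Y665F females, and Nr1i2 by -0.46 and -0.45 in the males of Y665F and Y665H.

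A list of 35 other genes known to respond to CAR or PXR was followed beside the Cyp2b genes, and 34 passed the filter. In Y665F males 13 rose and 14 fell (median log2 fold change -0.078, against -0.0076 over all genes tested), where 27.2% of all genes were called higher and 25.3% lower. In Y665F females 7 rose and 14 fell (median -0.34, against -0.019), where 17.8% of all genes were called higher and 23.3% lower. The list did not move in 1 direction with Cyp2b10. Those that rose in both sexes of Y665F numbered 7: the sulfotransferase Sult2a1, the sulfate donor enzyme Papss2, the reductase Akr1b7, the dehydrogenase Aldh1a7, the transferase Gstm3, the exporter Abcc4 and the stress gene Gadd45b. The 10 that fell in both sexes included Cyp3a11, the carboxylesterase Ces2a, the epoxide hydrolase Ephx1 and Cyp2c50. Cyp2c37 was the 1 gene called in opposite directions, higher in males (1.03, adjusted p 1.09e-06) and lower in females (-1.33, adjusted p 7.23e-08).

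Cyp3a11, the PXR target with the lowest fold change in both sexes of Y665F, averaged 4739 CPM in WT males and 1026 in Y665F males, a difference of -2.21 on the log2 scale (SE 0.24, adjusted p 1.32e-09). It averaged 2411 CPM in WT females and 313 in Y665F females (-2.95, SE 0.28, adjusted p 1.68e-10). Cyp2b10 and Cyp3a11 therefore moved in opposite directions in the same livers. Sult2a1, which was highest in the list, had 2 counts over all WT males and 198 CPM ± 37.6 (SD, n = 9) in Y665F males, and rose from 10.0 ± 8.76 (SD, n = 6) in WT females to 330 ± 49.5 (SD, n = 6) in Y665F females (5.02, SE 0.63, adjusted p 6.49e-08).

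In Y665H males edgeR called 0 of 34 target genes higher, DESeq2 called Sult2a1 (adjusted p 0.0200, against 0.564 by edgeR, on 23 counts over the Y665H and 2 over the WT males), and 2 fell, the glutathione transferase Gsta2 (-1.33, SE 0.40, adjusted p 0.0355) and the glucuronosyltransferase Ugt1a9 (-1.16, SE 0.24, adjusted p 0.00275), where 3.18% of all genes were called lower. In Y665H females 8 rose and 0 fell (median 0.24, against 0.0047 over all genes), where 7.50% of all genes were called and 4.40% were called higher. Cyp2c55, a phenobarbital-responsive P450, rose most (1.53, SE 0.27, adjusted p 0.00151), from 6.31 to 18.1 CPM, and Ugt2b34 least (0.29, SE 0.078, adjusted p 0.0226). With a fit of these groups alone 5 rose in place of 8 in females, and 4 fell in place of 2 in males.

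**Figure D5:**
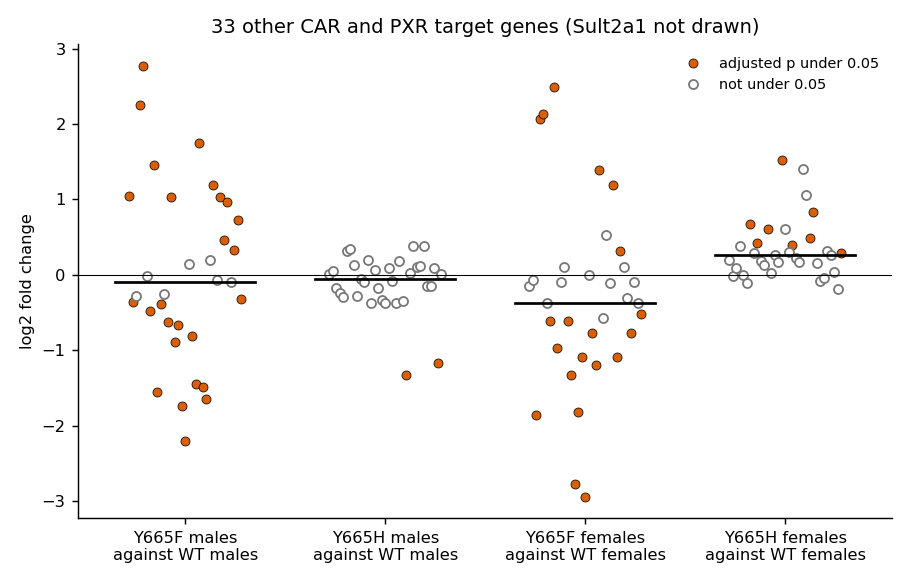
Log2 fold changes of 33 target genes of CAR and PXR other than Cyp2b10 in the 4 comparisons with WT, filled where the adjusted p is under 0.05, with a bar at the median of the genes drawn and Sult2a1 left out for scale. Called genes lie on both sides of 0 in both sexes of Y665F, 2 are called lower in Y665H males, and the 8 called in Y665H females lie above 0.

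Among 22 tested partners and coregulators of CAR and PXR, 3 rose and 7 fell in Y665F males, and 0 rose and 10 fell in Y665F females. Of all genes 27.2% were called higher and 25.3% lower in males, and 17.8% higher and 23.3% lower in females. The 10 edgeR calls in females were all lower, and DESeq2 called 7. Whether the list differed from all genes in direction was not tested. Cebpa, Med1, Ncoa2 and Nr0b2, all transcriptional regulators, were lower in both sexes. Egfr, the receptor whose signalling holds CAR inactive, averaged 1132 CPM in WT males and 561 in Y665F males (-1.01 on the log2 scale, SE 0.24, adjusted p 0.000678), and Rxrg, a partner receptor gene, rose by 0.89 (SE 0.10, adjusted p 5.91e-09) from 4.14 CPM. In Y665F females Nr0b2, which encodes the corepressor SHP, fell most (-1.04, SE 0.29, adjusted p 0.00412) and Dnajc7, which encodes a chaperone that retains CAR, least (-0.12, SE 0.046, adjusted p 0.0300). The female calls of Dnajc7, Ncoa2 and Rxra were lost with DESeq2 (adjusted p 0.0749, 0.0602 and 0.0543), which called 2 more genes lower in Y665F males, Ncoa1 and Ncor1. In Y665H males edgeR called 0 of 22, with 4 at an unadjusted p under 0.05 and 0 called by DESeq2, and in Y665H females the phosphatase gene Ppp2ca alone was (0.15, SE 0.049, adjusted p 0.0492), a call lost in 5 of 6 other analyses. Of all genes 8.40% were called in Y665H males and 7.50% in Y665H females.

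The electron donors that P450 enzymes need were called in both directions in Y665F livers, as were all genes (27.2% higher and 25.3% lower in males, 17.8% and 23.3% in females). In Y665F males the reductase that feeds microsomal P450s, Por, was 0.47 higher on the log2 scale (SE 0.13, adjusted p 0.00253), and the mitochondrial ferredoxin Fdx1 was lower (-0.57, SE 0.062, adjusted p 1.77e-09). Por averaged 285 CPM in WT males, 394 in Y665F males and 959 in WT females. In Y665F females Cyb5r3 rose (0.86, SE 0.096, adjusted p 5.66e-09) and Cyb5b fell (-0.45, SE 0.099, adjusted p 0.000395). Of 6 genes, 2 rose and 2 fell in Y665F males, 1 rose and 3 fell in Y665F females, 0 were called in Y665H males (1 at an unadjusted p under 0.05, 0 by DESeq2), and edgeR called Cyb5a higher in Y665H females (0.23, SE 0.068, adjusted p 0.0377). In these females 3 were at an unadjusted p under 0.05 and DESeq2 called 2, Fdx1 (adjusted p 0.0437, against 0.0546 by edgeR) beside Cyb5a. The shares of all genes called were 8.40% in Y665H males and 7.50% in Y665H females, 4.40% as higher.

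Among 12 regulators of liver sex bias downstream of growth hormone, 7 rose and 2 fell in Y665F males, and 2 rose and 1 fell in Y665F females, against 52.5% and 41.0% of all genes called. Cux2, a repressor normally made in female liver, averaged 0.796 CPM in WT males, 112 in Y665F males, 0.610 in Y665H males, 75.6 in WT females, 248 in Y665F females and 30.7 in Y665H females. Bcl6, a repressor normally higher in male liver, averaged 67.6 CPM in WT males, 14.7 in Y665F males, 39.4 in Y665H males and 12.4 in WT females. In Y665F females Ghr, the growth hormone receptor gene, rose most (1.96, SE 0.14, adjusted p 5.85e-14) and Foxa1, a pioneer factor gene, fell (-1.22, SE 0.19, adjusted p 3.28e-06). In Y665H males edgeR called 0 of 12, with 3 at an unadjusted p under 0.05 and 1 called by DESeq2, and in Y665H females Cux2 alone was, lower by -1.30 (SE 0.32, adjusted p 0.0119). These counts stand beside 8.40% of all genes called in Y665H males and 7.50% in Y665H females.

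The Cyp2b genes share their stretch of chromosome 7 with other Cyp2 genes, 10 of which were listed and 8 passed the filter. Cyp2a4, a female-biased steroid hydroxylase gene, averaged 0.943 CPM in WT males and 1199 in Y665F males (10.31 on the log2 scale, SE 0.57, adjusted p 4.90e-17), and 598 CPM in WT females and 2064 in Y665F females (1.79, SE 0.39, adjusted p 0.000324). It thus rose in Y665F females while Cyp2b13, on the same stretch, fell. Cyp2g1 also rose in both sexes of Y665F, from 2.29 to 22.9 CPM in males and from 11.9 to 37.9 CPM in females, while Y665H females had less of it (-1.75, SE 0.22, adjusted p 1.66e-05).

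Cyp2f2 fell in both sexes of Y665F (-1.67, adjusted p 4.17e-14 in males, and -1.32, adjusted p 4.92e-10 in females) and in Y665H males (-0.71, adjusted p 0.00286). Cyp2a12 fell in the same 3 comparisons by edgeR. Its mean was 615 CPM in WT, 461 in Y665F and 424 in Y665H males, and went from 662 to 493 CPM in Y665F females. Cyp2a22 rose in Y665F males, with a range of 2.78 to 98.2 CPM, and in Y665H females (3.97, SE 0.72, adjusted p 0.00179). edgeR did not call Cyp2a5, Cyp2s1 and Cyp2t4 in the 4 comparisons with WT, while DESeq2 called Cyp2t4 lower in Y665F males (-0.39, adjusted p 0.0468, against 0.0902 by edgeR). DESeq2 also called Cyp2g1 lower in Y665H males (adjusted p 0.0429) and Cyp2a12 lower in Y665H females (0.0387), where edgeR gave 0.0972 and 0.0721. Cyp2b19 and Cyp2b23 were at 0.133 CPM or less in every library and were not tested.

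The 3 genes closest to each of the 5 in profile were found by Pearson's r of log2 CPM over the 37 libraries among 12048 genes, a description in which all libraries share groups, sex and depth. Nearest to Cyp2b9 were Slc22a26 (r 0.975), Fmo1 (0.972) and Slc22a27 (0.971), and nearest to Cyp2b13 were Fmo1 (0.938), Fmo2 (0.938) and Cyp2c39 (0.936). Slc22a26 averaged 0.399 CPM in WT males and 195 in Y665F males. Nearest to Cyp2b10 were Akr1d1 (0.862), Pomt1 (0.816) and Bche (0.814). Nearest to Nr1i3 were Tomm40l (0.940), which overlaps it, Por (0.915) and Dgat2 (0.884), and nearest to Nr1i2 were Etnk2 (0.807), Baiap2l1 (0.806) and Mknk2 (0.795). Within the 5, r was 0.920 between Cyp2b9 and Cyp2b13, 0.620 between Cyp2b9 and Cyp2b10 and 0.492 between Cyp2b10 and Cyp2b13. Nr1i3 had an r of 0.660 with Cyp2b9, 0.647 with Cyp2b13, 0.133 with Cyp2b10 and 0.555 with Nr1i2. Nr1i2 had an r of 0.044 with Cyp2b9, 0.123 with Cyp2b13 and -0.298 with Cyp2b10.

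Markers of other cells moved in Y665F livers and, in fewer genes, in Y665H livers. The hepatocyte list, with a row for 7 of its 8 genes, summed to 87084 to 96615 CPM in WT and 128540 to 146423 in Y665F males, and to 108112 to 132053 in WT and 192910 to 226896 in Y665F females. Most of its genes nonetheless did not rise: 1 of 7 was called higher and 5 lower in Y665F males (median log2 fold change -0.36), and 1 higher and 3 lower in Y665F females (median -0.10). T and NK cell markers summed to 2.57 to 4.61 CPM in WT males and 7.06 to 19.0 in Y665F males (7 of 8 higher), and to 4.07 to 5.31 in WT females and 10.1 to 12.8 in Y665F females (8 of 8 higher). B and plasma cell markers were higher in 5 of 5 genes in both sexes, and Kupffer cell markers in 8 of 8 genes in Y665F males (161 to 245 CPM against 267 to 625) and 0 of 8 in Y665F females (1 at an unadjusted p under 0.05, 0 by DESeq2). In Y665F males 5 of 6 neutrophil markers (0.365 to 0.827 CPM against 1.59 to 9.06), 5 of 6 stellate cell and fibroblast markers (324 to 376 against 406 to 586) and 4 of 5 proliferation markers (5.57 to 10.2 against 19.7 to 34.1) were also higher, and the proliferation gene Birc5 was lower. In Y665F females 1 of 6, 0 of 6 and 1 of 5 were higher, and the stellate cell marker Lrat was lower. Endothelial markers were higher in 1 of 5 genes in Y665F males and 2 of 5 in Y665F females. The cholangiocyte and erythroid lists held genes that were lower. Cholangiocyte markers were higher in 1 of 5 genes and lower in 2 in Y665F males, and lower in 1 in Y665F females. The erythroid list summed to 116 to 133 CPM in WT males and 12.1 to 22.6 in Y665F males. Its 1 tested gene, Alas2, which encodes the heme synthesis enzyme of red cell precursors, was called lower there (-2.76 on the log2 scale) and higher in the females of Y665F (0.35) and Y665H (0.43). The globin genes Hbb-bs and Hbb-bt were at 0 in every library, and Hba-a1 in every library outside WT males. The erythroid sum was thus in effect that of Alas2 and no measure of globin RNA. Of all genes 27.2% were called higher and 25.3% lower in Y665F males, and 17.8% and 23.3% in Y665F females.

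In Y665H males, whose Nr1i2 was lower, Kupffer cell markers summed to 243 to 329 CPM against 161 to 245 in WT males, and edgeR called C1qb and Marco of 8 higher, with 7 at an unadjusted p under 0.05 and 5 called by DESeq2. Endothelial markers summed to 194 to 248 CPM against 268 to 301, with no overlap, and edgeR called 0 of 5, with 3 at an unadjusted p under 0.05 and 1 called by DESeq2. By edgeR Jchain, Elane and Spp1, from the plasma cell, neutrophil and cholangiocyte lists, were also called higher, and Cps1 and Birc5, from the hepatocyte and proliferation lists, lower. Of all genes 5.22% were called higher and 3.18% lower in Y665H males. In Y665H females edgeR called Alas2 higher and the T and NK cell gene Gzmb lower, and DESeq2 called these and the neutrophil gene Ngp, lower (adjusted p 0.0171, against 0.128 by edgeR), where 7.50% of all genes were called. T and NK cell markers summed to 2.02 to 3.60 CPM in Y665H females against 4.07 to 5.31 in WT females, with no overlap. Of these markers 4 of 8 were at an unadjusted p under 0.05 (median log2 fold change -0.66). The part of these shifts in the Cyp2b and receptor results was not tested. In bulk liver fewer hepatocytes and less RNA per hepatocyte cannot be told apart.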

How the data were processed

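Total RNA of 37 livers was sequenced after removal of ribosomal RNA, in read pairs, per the labels' protocols, which name library kits of different makers without tying them to libraries. The authors deposited raw counts per gene symbol, 1 file per library. The submitters' processing notes name FastQC 0.11.9, Trimmomatic 0.36, STAR, SAMtools 1.9, Picard 2.9.2, HTSeq 0.9.1 and the build mm10, with no settings. The 5 rows that name no gene (32.4% to 49.9% of counted items) entered neither library sizes nor tests. No libraries held identical counts.

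The 15152 of 24421 genes kept by filterByExpr, at a minimum count of 10 and a minimum total of 15, were fitted in R 4.3.3 with edgeR 4.0.16 (TMM, glmQLFit, glmQLFTest), with a mean per group over all 37 libraries. Adjusted p-values are Benjamini-Hochberg values over all genes of a comparison, and those under 0.05 count as called. Depth and replicate number limit the precision, and counts of a few reads carry counting error. How often a change of 1 or 2 on the log2 scale would be called at the spread of the 5 genes was not tested. Alternatives were RLE scaling, DESeq2 1.42.0, no filter, only the groups compared, a replicate block, thinned counts and leaving out each library. The ratio of Cyp2b13 to Cyp2b9 counts (0.5 added to each) was tested by exact permutation. Besides the 5 genes and Stat5b, the text names the called gene with the highest and the lowest fold change of each list in each comparison with WT, the listed neighbours on chromosome 7 and the 3 genes closest in profile (prior count 2, a mean of at least 1 CPM in a group). Other target genes and partners called in both sexes were named after their values were seen. The 5 genes and the lists were chosen with earlier results of these data known.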

Additional observations from a re-analysis of the deposited data

Results flagged for a closer look

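In Y665F males, replicate 2 stood apart from the other 8 libraries for Cyp2b9, at 444 CPM against 605 to 674, and for Cyp2b10, at 36.1 CPM against 64.8 to 91.2. This library also had the highest share of reads in no annotated gene of its group, 19.9%. Without it the log2 fold changes against WT males were 5.50 and 1.76. In Y665F females, replicate 3 was high for Cyp2b13, at 21.8 CPM against 6.52 to 11.3, and without it the log2 fold change against WT females was -5.23. Of 30 groups of values checked in this way these 3 stood apart, and chance alone flags about 1 in 20.

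The Y665F effect differed between the sexes by the interaction test for Cyp2b9 (6.03), Cyp2b13 (13.75) and Nr1i2 (-0.35).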

How the results depend on the processing

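Log2 fold changes kept their direction and side of the threshold in 1117 of the recomputed values of the 5 genes and of the Cyp2b13 to Cyp2b9 ratio, and 34 reversed, 15 passed and 17 lost the threshold. All 55 values of the 5 genes kept both with RLE scaling and with DESeq2. With a fit of the groups compared alone, calls were gained for Nr1i3 in Y665F against WT males (0.24) and in the Y665F interaction (0.28), for Cyp2b9 in Y665F against WT females (-0.55), Y665H against Y665F females (0.56) and Y665F males against females (0.51), and for Nr1i2 in the Y665H interaction (-0.41). Only the groups compared set the spread in those fits, and why calls were gained was not tested. Thinned counts turned Nr1i3 in Y665H males to -0.0024, and the replicate block turned Nr1i2 in Y665H against Y665F males to -0.0089. Cyp2b10 in Y665F males against females lost its call with no filter (0.65, adjusted p 0.0529) and with the block (0.69), and Nr1i2 in the Y665F interaction with the block (-0.34). The causes of the last 5 changes were not tested.

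Leaving out 1 library changed a call or a sign in these results, given as lowest and highest log2 value. For Cyp2b9 they were -0.17 to 0.89 in Y665H males and -0.044 to 0.13 in Y665H females against WT, and -0.19 to 0.87 in the Y665H interaction. For Cyp2b10 they were, against WT, 0.71 to 1.01 for Y665F females and 0.67 to 1.01 for Y665H females, -0.15 to 0.18 in Y665H against Y665F females, -0.35 to 0.012 in WT males against females, 0.60 to 0.76 in Y665F males against females and -1.46 to -1.09 in the Y665H interaction. For Cyp2b13 they were -0.45 to 0.019 in Y665H females and -0.45 to 0.11 in the Y665H interaction. For Nr1i3 they were, against WT, 0.19 to 0.26 for Y665F males, -0.18 to 0.14 for Y665H males and -0.40 to -0.18 for Y665H females, -0.40 to -0.076 in Y665H against Y665F males and -0.33 to -0.12 in Y665H against Y665F females. For Nr1i2 they were, against WT, -0.21 to -0.044 for Y665F females and -0.093 to 0.0024 for Y665H females, -0.015 to 0.067 in Y665H against Y665F males, -0.0014 to 0.16 in Y665H against Y665F females and -0.42 to -0.25 in the Y665F interaction. The ratio in Y665H males ran from -0.56 to 0.53.

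Of the 240 recomputed list counts, 23 moved by over 1.5 times, mostly from 0 or 1 gene. Replicate numbers gave no sign of pairing the libraries. Deviations of same-numbered libraries had a median r of 0.0047, over 0.1 in 6 of 80 pairs. For different numbers the median was -0.0024, with 56 of 484 pairs over 0.1. Of 34 libraries, 5 were closest to their own number. Shared litters or shared processing were not tested. Counts limit Cyp2b13 in males without Y665F, with 4 to 17 per library.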
